A study of Mus musculus with 8 samples.

Results

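The 4 Dlx genes examined here, Dlx1, Dlx2, Dlx5 and Dlx6, lie in 2 bigene clusters in the mouse genome. The members are the peaks of H3K4me3, trimethylation of histone H3 at lysine 4 as found at active promoters, that overlapped the Dlx1 and Dlx2 window (mm9 chromosome 2, 71355000 to 71395000) or the Dlx5 and Dlx6 window (mm9 chromosome 6, 6795000 to 6845000). They numbered 35 of the 74232 peaks in 4 peak lists, with 18 in the Dlx1 and Dlx2 window and 17 in the Dlx5 and Dlx6 window. By library there were 13 of 19486 peaks in WT replicate 1, 12 of 19331 in WT replicate 2, 5 of 18048 in dKO replicate 1 and 5 of 17367 in dKO replicate 2.

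H3K4me3 was profiled by chromatin immunoprecipitation and sequencing in whole brains of mouse embryos at E12.5, on a mixed strain background. The WT group was wild type by its label and served as the control without Cre, with 2 libraries. The dKO group, also with 2 libraries, was Lats1/2;Nestin-Cre dKO, in which the Hippo kinases Lats1 and Lats2 are deleted where the Nestin promoter drives Cre, mainly in neural progenitors. These kinases hold back the coactivators YAP and TAZ. Cre was carried by the dKO group alone, so Cre and the loss of Lats1 and Lats2 cannot be told apart. The labels do not say whether controls carried conditional Lats alleles or which embryo gave each library. The p-values therefore reflect the spread among these libraries alone, which may be technical.

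Dlx genes encode homeodomain transcription factors related to Distal-less of the fly. In the embryonic forebrain they are expressed in the ganglionic eminences of the ventral telencephalon, where Dlx1 and Dlx2 act in progenitors and Dlx5 and Dlx6 come on as cells leave the cycle. Together they drive the differentiation and migration of GABAergic neurons. Each bigene cluster has its genes transcribed towards each other with shared enhancers between them. The ganglionic eminences are a part of the whole brain. In a bulk sample, fewer cells with the mark and less of the mark per cell cannot be told apart.

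The lists hold positions and a score per peak, with no gene names. RefSeq was at hand on build GRCm38.p6 and not on mm9, so it was used for names and neighbours and no peak was assigned to a single gene, promoter, exon or intron. It lists Dlx1 before Dlx2 on chromosome 2, with the antisense gene Dlx1as overlapping Dlx1, and Dlx6 before Dlx5 on chromosome 6, with the long noncoding gene Dlx6os1 overlapping Dlx6. For the same reason the label of brain tissue was not checked against marker genes. Across all peaks the dKO lists were shorter and covered less sequence (19.3 and 17.3 Mb, against 20.3 and 21.4 Mb in WT), with the lowest scores in dKO replicate 2. The number of reads behind each list is unknown.

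Of the 4 members, 2 had a promoter in RefSeq (GRCm38.p6, 250 bases before to 50 after the gene start). Both are printed because H3K4me3 is laid down over CpG-rich promoters, and because the mark covered less of both clusters in dKO, as described next. Capitals mark each CG dinucleotide. Positions are on GRCm38.p6 and cannot be set against the mm9 peaks.
Dlx1, plus strand, chr2:71529195-71529494: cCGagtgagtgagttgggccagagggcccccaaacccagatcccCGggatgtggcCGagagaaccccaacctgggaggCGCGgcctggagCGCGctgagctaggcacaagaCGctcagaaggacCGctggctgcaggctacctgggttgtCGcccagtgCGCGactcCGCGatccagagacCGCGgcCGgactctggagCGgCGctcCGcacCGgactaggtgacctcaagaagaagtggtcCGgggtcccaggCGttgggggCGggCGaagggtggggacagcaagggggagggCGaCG
Dlx2, minus strand, chr2:71546705-71547004: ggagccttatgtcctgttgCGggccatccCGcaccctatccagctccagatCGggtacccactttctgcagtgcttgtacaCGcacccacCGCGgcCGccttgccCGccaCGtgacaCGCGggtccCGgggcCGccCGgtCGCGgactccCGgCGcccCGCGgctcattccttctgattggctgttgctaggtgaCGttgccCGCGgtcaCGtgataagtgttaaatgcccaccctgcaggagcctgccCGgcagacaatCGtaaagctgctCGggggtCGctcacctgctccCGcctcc

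The Dlx1 promoter held 27 CG dinucleotides and that of Dlx2 held 29, where the median of 32851 promoters was 7. At least as many CG dinucleotides as in Dlx1 were found in 15.5% of promoters, and at least as many as in Dlx2 in 12.9%. Both strands were also searched for 3 motifs. GGAATG, the core bound by TEAD factors, the DNA-binding partners of YAP and TAZ, was found in the Dlx2 window and not in that of Dlx1, and in 14.7% of all promoters. TAATTA, a homeodomain core found in 5.29% of promoters, and TATAAA, found in 13.6%, matched neither window. A match is a description of these letters and not a bound site.

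H3K4me3 covered less of both Dlx clusters in dKO than in WT. In the Dlx1 and Dlx2 window, peaks covered 5246 bp in WT replicate 1, 5618 bp in WT replicate 2, 2699 bp in dKO replicate 1 and 2134 bp in dKO replicate 2. Both dKO values lay far below both WT values. Mean coverage was 5432 ± 263 bp for WT against 2416.5 ± 400 bp for dKO (SD, n = 2 each), 55.5% lower. The Dlx5 and Dlx6 window held 5360 bp under peaks in WT replicate 1, 3947 bp in WT replicate 2, 1984 bp in dKO replicate 1 and 1454 bp in dKO replicate 2. Here too the genotypes did not overlap, although the WT libraries differed more from each other. Mean coverage was 4653.5 ± 999 bp for WT against 1719 ± 375 bp for dKO (SD, n = 2 each), 63.1% lower. An exact two-sided permutation test gave p = 0.3333 for either window, which is the smallest p that 2 libraries against 2 allow. Both dKO values also lay below both WT values in 44.4% of 10703 loci over the genome, so this order alone is common. These loci join peaks of the lists across gaps of up to 20000 bp and have a peak in every library.

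The mark was also called in fewer pieces. The Dlx1 and Dlx2 window held 5 and 7 peaks in the WT libraries and 3 in each dKO library. The Dlx5 and Dlx6 window held 8 and 5 peaks in WT and 2 in each dKO library. Means were 6 ± 1.41 and 3 ± 0 peaks in the first window and 6.5 ± 2.12 and 2 ± 0 peaks in the second (WT and dKO, SD, n = 2 each; exact permutation p = 0.3333 for both). When each list was limited to its 17367 peaks of highest score, the difference in the Dlx1 and Dlx2 window turned to 0.5 more peaks in dKO, while the difference in sequence under peaks was -44.2%. For Dlx5 and Dlx6 the limited lists gave a difference of -1.5 peaks and of -53.1% in sequence.

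**Figure D1:**
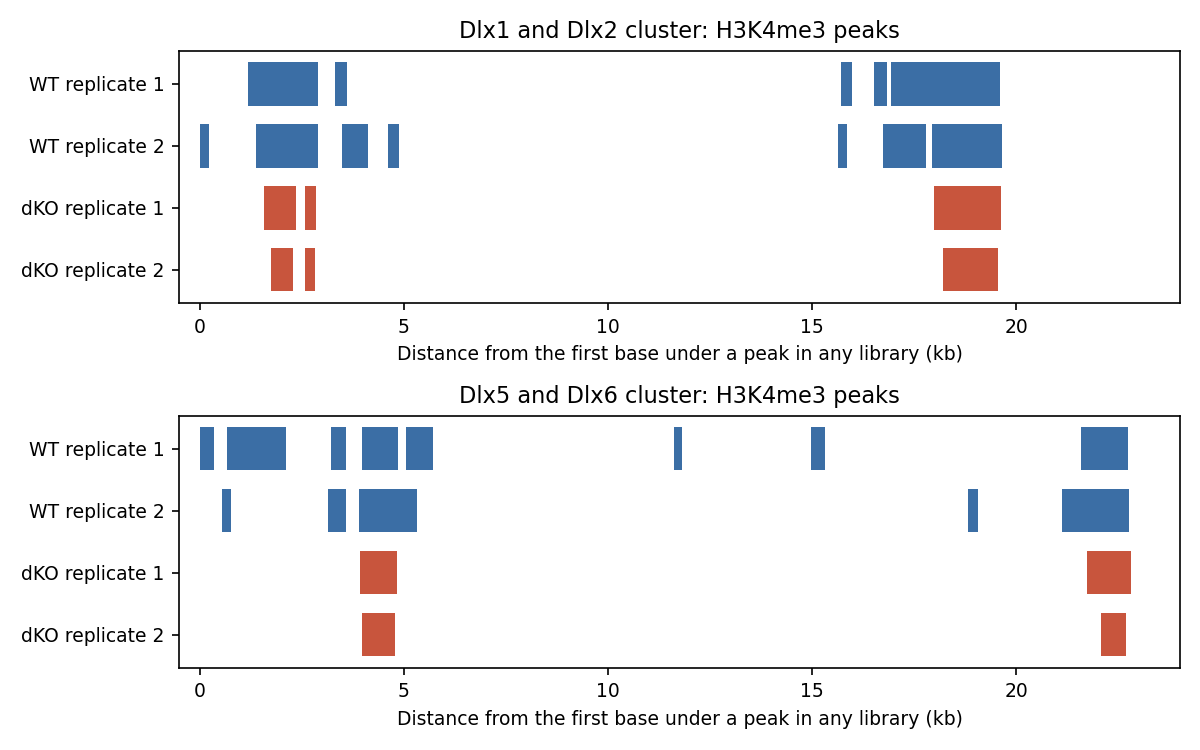
Every H3K4me3 peak in the Dlx1 and Dlx2 window (top) and the Dlx5 and Dlx6 window (bottom), as a bar drawn to scale in a row for each library (WT blue, dKO red), with distance in kb from the first base under a peak on the x axis. In dKO the small outlying peaks are missing and the blocks shared by all libraries hold less sequence under peaks, with 3 peaks per library in the top panel and 2 in the bottom panel.

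Pieces present in WT and without any overlapping dKO peak made up most of the WT members. In WT replicate 1 this held for 9 of 13 pieces, against 8.53% of all peaks of that list, and in WT replicate 2 for 8 of 12 pieces, against 10.4%. Short peaks are lost more often everywhere: of peaks under 500 bp, 31.5% in WT replicate 1 and 40.5% in WT replicate 2 had no dKO peak. All 7 Dlx pieces under 500 bp in WT replicate 1 and all 6 in WT replicate 2 had none. Each of the 10 dKO pieces overlapped a WT peak, as nearly all dKO peaks do (1.56% of all dKO replicate 1 peaks and 0.547% of all dKO replicate 2 peaks overlapped none).

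Of the pieces without a dKO peak, 2 in each WT library were at least 500 bp wide. The widest lay in the Dlx5 and Dlx6 window from 6810046 to 6811478 in WT replicate 1 and measured 1433 bp. No peak of that library that lacked a dKO peak was wider. WT replicate 2 had a single peak of 205 bp there, from 6809926 to 6810130, so the WT libraries themselves differed at this site. The next in width was a WT replicate 2 piece in the Dlx1 and Dlx2 window, from 71382203 to 71383254 (1052 bp). WT replicate 1 covered most of the same stretch with its peak from 71382402 to 71385059, and both dKO peaks there began further on. A piece of 643 bp from 6814434 to 6815076 in WT replicate 1 and one of 626 bp from 71368963 to 71369588 in WT replicate 2 were the others.

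A short WT peak between the outer and the main block of the Dlx5 and Dlx6 window was also absent in dKO. It ran from 6812582 to 6812957 in WT replicate 1 (376 bp) and from 6812513 to 6812960 in WT replicate 2 (448 bp). Its score percentile was 18.4 in WT replicate 1 and 36.0 in WT replicate 2, the latter the highest rank of any WT piece without a dKO peak. Some of the smallest pieces were seen in a single library: 3 in WT replicate 1 and 3 in WT replicate 2 overlapped no peak of any other list. The share of all peaks seen in a single library was not computed, so whether these counts are unusual is unknown.

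Counted base by base, 4375 bp of the Dlx1 and Dlx2 window lay under peaks of both WT libraries. Of these, 2134 bp (48.8%) were also under peaks of both dKO libraries and 1712 bp (39.1%) under none. At Dlx5 and Dlx6, 2737 bp were under peaks of both WT libraries, with 1440 bp (52.6%) in both dKO libraries and 885 bp (32.3%) in none. Over all peaks the corresponding shares were 83.8% and 5.34%. Little sequence lay under dKO peaks and no WT peak: 0 bp in the Dlx1 and Dlx2 window, and 68 bp, from dKO replicate 1, in the Dlx5 and Dlx6 window. Over all peaks this was 722110 of 23627029 bp. Sequence under a peak of 1 WT library and no other came to 2078 of 6489 bp under any peak at Dlx1 and Dlx2. At Dlx5 and Dlx6 it was 3769 of 6638 bp, so most of the sequence under any peak there was not shared by the WT libraries. Over all peaks it was 2383470 of 23627029 bp.

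**Figure D2:**
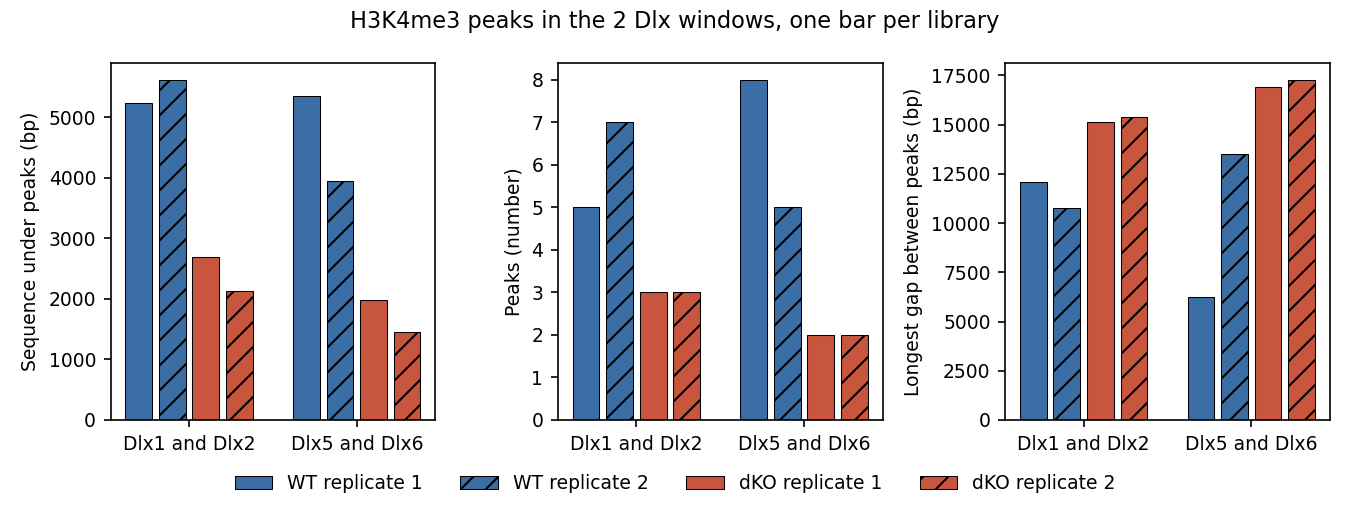
Sequence under peaks (left, bp), number of peaks (middle) and longest gap between neighbouring peaks (right, bp) in the 2 Dlx windows, with 1 bar for each library (WT blue, dKO red, replicate 2 hatched). Both dKO bars stand below both WT bars for sequence and number, and above them for the longest gap. Over 10703 loci chained across up to 20000 bp, dKO was lower in this way in 44.4% for sequence and 4.49% for number. The share for number includes loci with a single WT piece, which cannot have fewer, and no share was computed for the longest gap.

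The longest gap was longer in both dKO libraries in either window, while the sum of gaps went opposite ways in the 2 windows. The longest gap of each WT library borders a piece that no dKO peak overlaps, so its length in part counts those missing pieces again. The share of all loci with a longer gap in both dKO libraries was not computed, so whether this is unusual is unknown. In the Dlx1 and Dlx2 window the longest gap was 12100 bp in WT replicate 1 and 10746 bp in WT replicate 2, and 15129 and 15373 bp in the dKO replicates. It separates the outer blocks of the cluster. At Dlx5 and Dlx6, WT replicate 1 had small peaks within the interval, and its longest gap was 6261 bp. WT replicate 2 had 13506 bp, and the dKO libraries had a single gap of 16896 and 17267 bp. Uncovered sequence between the first and the last peak summed to 13588 ± 615 bp (WT) and 15505 ± 222 bp (dKO) for Dlx1 and Dlx2 (SD, n = 2 each; exact permutation p = 0.3333). For Dlx5 and Dlx6 it was 17806 ± 617 bp (WT) and 17081.5 ± 262 bp (dKO; exact permutation p = 0.3333), since the outermost WT peaks were missing and the span from first to last peak was 16.3% shorter. That difference of -724.5 bp became 201.5 bp when peaks under 500 bp were left out.

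Each window kept 2 regions with a peak in all 4 libraries, where a region is the stretch of peaks that overlap by at least 1 bp across lists. In the Dlx1 and Dlx2 window, the first region, from 71366661 to 71368377, had 1717 and 1527 bp under peaks in the WT libraries, against 1059 and 787 bp in the dKO libraries. It was 1 peak in each WT library and 2 in each dKO library, split by gaps of 219 and 289 bp. The second region, from 71381974 to 71385110, was the broadest of the 4, with 2974 and 2756 bp in the WT libraries, against 1640 and 1347 bp in the dKO libraries. By mean WT width it stood at percentile 96.7 of all 14943 shared regions, and by mean dKO width at percentile 73.1.

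The first Dlx5 and Dlx6 region, from 6813260 to 6815076, had 1521 and 1424 bp in the WT libraries, against 891 and 827 bp in the dKO libraries. The second, from 6830493 to 6832182, had 1148 and 1622 bp in the WT libraries, against 1093 and 627 bp in the dKO libraries. The WT and dKO values of this last region came close, with 1148 bp in WT replicate 1 and 1093 bp in dKO replicate 1. In all 4 regions both dKO widths were below both WT widths, which was so in 39.1% of all shared regions.

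The width test used limma on log2 widths centred on the median of each library, over all 14943 shared regions with Benjamini-Hochberg adjustment. None of the 4 Dlx regions passed an adjusted p of 0.05 as narrower, and none of all regions did (0%). At unadjusted p under 0.05, 3 of the 4 were narrower, against 4.85% of all regions. The second Dlx1 and Dlx2 region had the smallest p, at a log2 difference of -0.80 (SE 0.10, limma adjusted p = 0.184). The first had -0.68 (SE 0.15, limma adjusted p = 0.409), and -1.16 with peaks within 1000 bp merged and -1.19 without peaks under 500 bp. The Dlx5 and Dlx6 regions had -0.64 (SE 0.12, limma adjusted p = 0.321) and -0.58 (SE 0.25, limma adjusted p = 0.662). The first of these was -0.24 where peaks had to overlap by 50% of the shorter, -0.25 with lists of equal length and -1.29 with peaks within 1000 bp merged. The second was -0.37 without WT replicate 2, -0.24 without dKO replicate 2 and -0.92 without dKO replicate 1. The median over the 4 regions was -0.66, and over all regions 0.023; before centring these were -0.80 and -0.12. With peaks within 1000 bp merged first, the second Dlx1 and Dlx2 region passed (log2 -1.25, limma adjusted p = 0.0477), as 1 of 7 regions then called narrower in all. It also passed without dKO replicate 1 (log2 -0.88, limma adjusted p = 0.0389), where the single dKO library left is taken to vary as the WT libraries do and 102 regions in all were called narrower.

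The shared regions were shorter in dKO mostly at 1 end, where an end is taken over all peaks of a region. In the second Dlx1 and Dlx2 region the last base under a peak varied by 94 bp across the 4 libraries. The first base lay at 71381974 and 71382203 in WT and at 71383456 and 71383670 in dKO, 1474.5 bp further in on average. Both WT ends belong to separate pieces that no dKO peak overlaps, so this shift counts those missing pieces again. The WT peaks that dKO peaks do overlap began at 71382402 and 71383407. The first Dlx5 and Dlx6 region kept its first base within 91 bp in all libraries and ended 701.5 bp earlier in dKO (6815076 and 6814683 in WT, 6814193 and 6814163 in dKO). Here the WT replicate 1 end is that of its 643 bp piece without a dKO peak, and its other peak ended at 6814228. In the second Dlx5 and Dlx6 region the first base moved inward by 538.5 bp, and the mean last base differed by 13.5 bp. For these 3 regions the end that moved was the one that faced the other region of the same cluster. The first Dlx1 and Dlx2 region differed, as its outer end moved by 379.5 bp and its inner end by 65.5 bp. The moved ends did not overlap between genotypes (exact permutation p = 0.3333 for each, the smallest this design allows). They were picked out by the size of these same shifts. The share of all regions with such ends was not computed, so no trait of the Dlx regions follows.

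**Figure D3:**
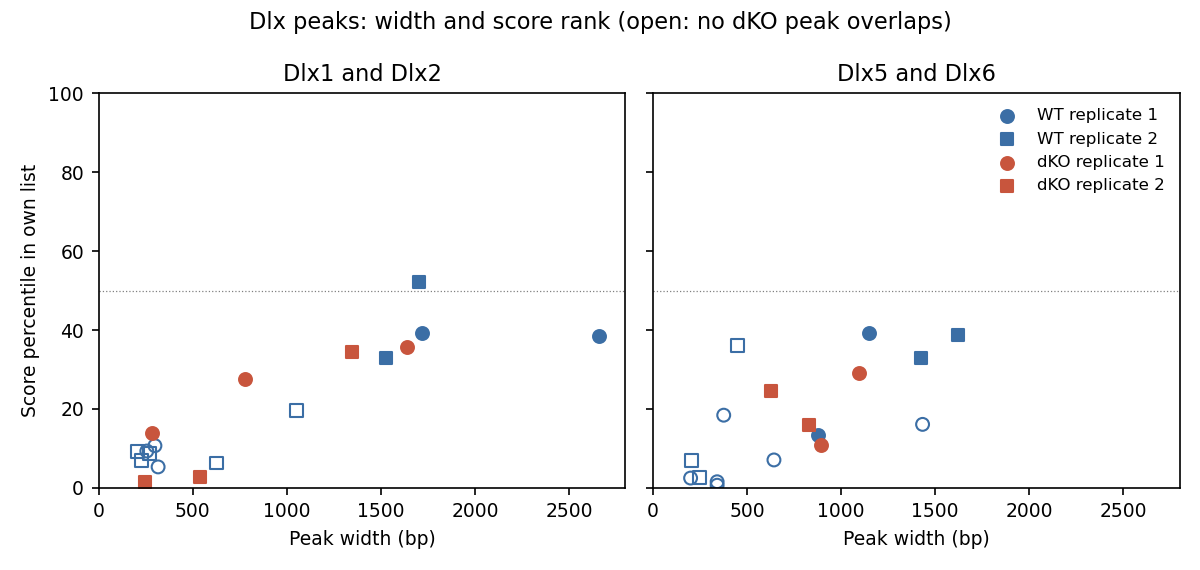
Width (x axis, bp) and score percentile within its own list (y axis) of every Dlx peak, by library (WT blue, dKO red, circles replicate 1, squares replicate 2), with open symbols for WT peaks that no dKO peak overlaps and a dotted line at percentile 50. All but 1 of the 35 peaks lie below the line, and the open symbols lie mostly at small widths and low ranks.

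The Dlx peaks ranked low by score within their lists, including those that were wide. The score is the authors' value for each peak on a scale that the labels do not name, and it was used as a rank within a list, with no test. Of the 25 WT pieces, 24 scored below the median of their list, as did all 10 dKO pieces. The best score in the Dlx1 and Dlx2 window stood at percentiles 39.3 and 52.2 in WT and at 35.8 and 34.4 in dKO. That of the Dlx5 and Dlx6 window stood at percentiles 39.3 and 38.8 in WT and at 29.0 and 24.5 in dKO. In both windows the 2 dKO percentiles were below both WT percentiles, but they come from lists of different lengths and were not tested. The share of all loci with this order was not computed, so whether it is unusual is unknown. Counted from the top, the best Dlx1 and Dlx2 peak was at rank 11834 and 9233 in WT and 11589 and 11400 in dKO, so the genotypes overlapped. The best Dlx5 and Dlx6 peak was at rank 11834 and 11830 in WT and 12810 and 13116 in dKO. It thus ranked lower in both dKO libraries, again in lists of different lengths and with no share over all loci computed. Weighted by width over all pieces, the mean percentile was 33.8 and 30.2 in WT and 31.2 and 22.5 in dKO for Dlx1 and Dlx2, and 17.3 and 32.5 in WT and 20.9 and 19.6 in dKO for Dlx5 and Dlx6. In dKO replicate 2 the first Dlx1 and Dlx2 region was near the bottom of the list, with its pieces at percentiles 2.71 and 1.38. Width and score percentile are thus at odds at the second Dlx1 and Dlx2 region: the WT replicate 1 peak of 2658 bp was at percentile 97.4 of its list by width and at 38.6 by score. Weak peaks are those that a threshold loses first, and what part this had in the narrower clusters was not tested.

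Over whole clusters, the Dlx loci had width changes near the low end of all loci. The regions of the 4 lists were chained into loci across gaps of up to 10000 bp. The Dlx5 and Dlx6 pieces formed 1 locus and the Dlx1 and Dlx2 pieces formed 2, from 71365470 to 71370363 and from 71381110 to 71385110. In limma over 12126 loci with a peak in all libraries, the log2 width change was -1.29 (SE 0.19, adjusted p = 0.191) for Dlx5 and Dlx6. It was -1.19 (SE 0.16, limma adjusted p = 0.183) for the first and -0.91 (SE 0.11, limma adjusted p = 0.183) for the second Dlx1 and Dlx2 locus. None of these 3 passed, and 0.033% of all loci were called narrower. At unadjusted p under 0.05 all 3 were narrower, against 5.9% of loci. Both dKO widths were below both WT widths in all 3, as in 42.9% of all loci. Changes as low or lower were seen in 33 loci for Dlx5 and Dlx6 and in 42 and 134 loci for the others.

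The Dlx1 and Dlx2 gap exceeds 10000 bp, and chaining across up to 20000 bp made each cluster a single locus. The Dlx1 and Dlx2 locus then passed the threshold, with a log2 width change of -1.03 (SE 0.090, limma adjusted p = 0.0265), as 1 of 5 loci called narrower among 10703 (0.0467%). The call depended on which libraries entered: the change was -1.04 without WT replicate 1, -1.02 without WT replicate 2 and -0.93 without dKO replicate 2 (limma adjusted p = 0.145, 0.106 and 0.0573), and -1.13 without dKO replicate 1 (0.00593). Without centring it was -1.18 and did not pass (limma adjusted p = 0.173). The Dlx5 and Dlx6 locus changed more on average and varied more between the WT libraries (log2 -1.29, SE 0.18, limma adjusted p = 0.147). It passed without WT replicate 2 (log2 -1.55, limma adjusted p = 0.0321) and without dKO replicate 1 (log2 -1.44, 0.0328). Calls of narrower loci numbered 5 in all without WT replicate 2 and 111 without dKO replicate 1, so the passes of both clusters without dKO replicate 1 came with many more calls elsewhere. The median over all loci was 0.0081. Changes as low or lower, the cluster itself included, were seen in 76 loci for Dlx1 and Dlx2 and in 34 for Dlx5 and Dlx6. In both clusters the dKO widths were below both WT widths, as in 44.4% of all loci. Both clusters had fewer pieces in each dKO library than in each WT library, which held for 4.49% of loci. That share includes loci with a single piece in a WT library, which cannot have fewer. The share among loci of several pieces was not computed. With lists of equal length the mean difference at Dlx1 and Dlx2 was 0.5 more peaks in dKO. Of the 1205 loci with a mean of at least 3000 bp over the 4 libraries, a limit chosen after the values were seen, 1 had a lower log2 change than Dlx5 and Dlx6. That locus and Dlx5 and Dlx6 were the 2 below Dlx1 and Dlx2.

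**Figure D4:**
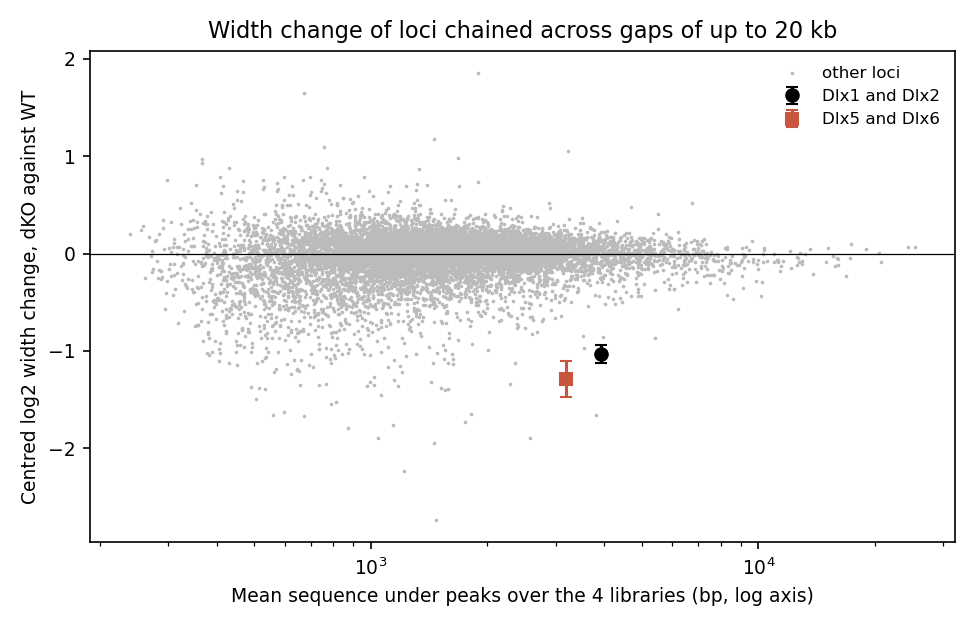
Centred log2 width change in dKO against WT (y axis) and mean sequence under peaks over the 4 libraries (x axis, bp, log scale) for 10703 loci chained across gaps of up to 20000 bp, with 1 grey point for each locus and the 2 Dlx clusters marked with their limma standard errors. The clusters stand at -1.03 (Dlx1 and Dlx2) and -1.29 (Dlx5 and Dlx6). Of all 10703 loci, 76 and 34 in that order were as low or lower, the cluster itself included. Of the 1205 loci of at least 3000 bp, a limit chosen after the values were seen, 1 lies below both.

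The clusters were then compared with each other within each library, so that a change shared by a whole list cancels. The Dlx5 and Dlx6 window had 102% of the sequence under peaks of the Dlx1 and Dlx2 window in WT replicate 1 and 70.3% in WT replicate 2. In dKO these values were 73.5% and 68.1%. The genotypes overlapped, and the log2 ratio differed by -0.26 between dKO and WT (exact permutation p = 0.6667). Without WT replicate 1 the difference was 0.011, and without peaks under 500 bp it was 0.060. The exact permutation test cannot give a p below 0.3333 with these libraries. It thus cannot decide whether the clusters differed in how much less sequence lay under dKO peaks.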

How the data were processed

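The authors deposited 1 peak list for each of 4 H3K4me3 libraries. The 4 input libraries were not analysed here. The submitters' processing notes name build mm9 and MACS2 2.1.1.20160309, bedtools, BWA 0.7.12-r1039, R 2.14.0, SAMtools and Picard 2.6.0. The role of each tool, its thresholds and the use of input are not given in the sources used here. Each list as deposited holds peak positions and a score on a scale not named, with a lowest value of 13. Positions are given counted from 1. Depth is unknown, so no interval for counting error could be given.

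Pieces, gaps and widths were computed with Python 3.11.15, pandas 2.3.3 and numpy 2.4.6, and plotted with matplotlib 3.10.9. Values per window were compared by an exact two-sided permutation test over libraries. Widths of all regions and of all chained loci with a peak in all 4 libraries were fitted in R 4.3.3 by limma 3.58.1 (log2 widths centred per library, no pseudocount, moderated variances with a trend), adjusted over all features, and tested on simulated data. Every region in the windows is named. The members, windows and tests were chosen with earlier results of these data known. Alternatives covered list length, merging, short peaks, window edges, centring, the variance trend, the overlap that counts as shared, chaining distance, a replicate block, and each library left out with the region boundaries kept. Replicate numbers are shared by the genotypes, and no label says that they mark a litter or day.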

Additional observations from a re-analysis of the deposited data

How the results depend on the processing

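Sequence under peaks stayed lower in dKO in both windows in all alternatives, 10 for each, at -44.2% to -62.0% for Dlx1 and Dlx2 and -51.9% to -68.8% for Dlx5 and Dlx6, with -50.9% and -59.4% after division by the median locus width of each library. Among these, the replicate block cannot change a difference of means, and widening the windows left the values as they were. The number of peaks in the Dlx1 and Dlx2 window turned to 0.5 more in dKO with lists of equal length. Gap sequence in the Dlx5 and Dlx6 window turned to 201.5 bp more in dKO without peaks under 500 bp. The difference in log2 ratio between the clusters turned to 0.060 without peaks under 500 bp, and ranged from -0.53 to 0.011 with a library left out, at 0.011 without WT replicate 1. The mean best score percentile differed by -10.7 points (Dlx1 and Dlx2) and -12.3 points (Dlx5 and Dlx6), or -5.15 and -4.66 points as a mean weighted by width. The lists differ in length, so a difference in percentile is not by itself a difference in rank from the top. The causes were not tested.

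All 4 region changes and all 3 locus changes stayed below 0 in each of 12 and 18 alternatives, the smallest being -0.24 for each Dlx5 and Dlx6 region, for the first with the 50% overlap rule and for the second without dKO replicate 2. Among these, the replicate block and the variance trend cannot change a log2 value. Chaining across 20000 bp gave 2 loci, so the single Dlx1 and Dlx2 locus stands there for both of its loci. Some alternatives gave 4 loci. There each of the 3 was matched to the locus of largest overlap, and the locus left over is not included. None of the 4 regions passed in limma, but 1 did with peaks merged (7 narrower calls in all), and 0 to 1 did with a library left out. None of the 3 loci passed, but 1 did under the replicate block, 0 to 1 did with a library left out, and 1 did with chaining across 20000 bp, where 0 to 2 did with a library left out. The call under the block was Dlx5 and Dlx6 (log2 -1.29, limma adjusted p = 0.0324), which also passed without WT replicate 2 (log2 -1.54, limma adjusted p = 0.0482). The correlation of same-numbered deviations was -0.059 over regions and -0.064 over loci. With 2 libraries per genotype this cannot show whether the numbers mark a litter or day. For the windows the block cannot change a difference of means, which stayed at -55.5% and -63.1%. Calls of narrower regions over the whole table numbered 0, and 0 to 102 over the alternatives, with 102 without dKO replicate 1. Those of narrower loci numbered 4, and 0 to 111, with 22 without dKO replicate 1 and 111 without it in the 20000 bp chain. The 20000 bp chain without centring and with a library left out was added after the data were seen.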

Other observations

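Loci most like each Dlx locus in mean sequence under peaks, with the same number of pieces in WT replicate 1, were taken as the 5 nearest among the loci chained across 10000 bp. They were not matched by score, in which the Dlx peaks ranked low, and are given as values. For the first Dlx1 and Dlx2 locus the 5 had log2 width changes from -0.20 to 0.18, and in 2 of them both dKO widths were below both WT widths. The 5 nearest to the second Dlx1 and Dlx2 locus ranged from -0.25 to 0.10, with 1 of them lower in both dKO libraries. Loci with 8 pieces were few, and the 5 nearest to Dlx5 and Dlx6 were wider, at 3330.5 to 6065 bp against 3186 bp. Their changes ran from -0.47 to -0.057, and all 5 were lower in both dKO libraries. The lowest of these lay on chromosome 5 from 106880923 to 106888623, with 4035.5 ± 514 bp (WT) against 2625.5 ± 20.5 bp (dKO; SD, n = 2 each).

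The other 4 loci called narrower by limma with chaining across 20000 bp began on chromosome 12 at 89961342, on chromosome 2 at 158432781, on chromosome 7 at 58876925 and on chromosome 9 at 58044459. Their limma adjusted p was 0.0127 in each case, with log2 changes of -2.23, -1.66, -2.74 and -1.90 in that order. They were not assigned to genes.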
